A study of Marmota monax with 203 samples.

Results

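The liver transcripts described here are those of 8 genes that carry or brake death receptor signalling: the ligands TNFSF10 and FASLG, the receptor FAS, the initiator caspase CASP8, its inhibitor CFLAR, the mitochondrial factors BID and BAK1, and XAF1. They were taken by gene symbol from the expression files, not by their values, and all 8 were among the 17587 genes listed. The samples were liver biopsies of woodchucks (Marmota monax) that had been infected with woodchuck hepatitis virus at 3 days of age, with an inoculum of strain WHV7-11, and were chronic carriers as adults. The placebo group of 12 animals received vehicle under the skin 3 times a week for 15 weeks. The wIFN-α group received recombinant woodchuck interferon-α5 on the same schedule, at 20 µg per dose at first and at 100 µg from week 7 to week 15, and 11 of its animals were compared. Biopsies came from week -3 (before treatment), weeks 0, 3, 7, 11 and 15 (6 hours after a dose) and weeks 19 and 23 (follow-up). From week -3 to week 23 the biopsies numbered 12, 12, 12, 12, 10, 9, 5 and 9 in the placebo group and 11, 11, 9, 9, 8, 8, 6 and 6 in the wIFN-α group. All animals of both groups carried the virus, so no uninfected liver entered a comparison. The weeks follow the same animals, but not all of them at every week. Some animals died during the study, and some survivors lacked a biopsy at a week.

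Death receptors of the TNF receptor family, such as FAS and the receptors for TRAIL, gather the adaptor FADD and caspase 8 beneath the membrane when a ligand binds, and active caspase 8 starts apoptosis. In hepatocytes the signal usually needs the mitochondrial amplifier: caspase 8 cleaves BID, and cleaved BID opens the BAX and BAK pores that release cytochrome c. TRAIL, FAS and XAF1 are known targets of type I interferon, and FAS ligand and TRAIL are weapons of T and NK cells against infected liver. Transcript levels do not measure caspase activity or cell death, and neither was part of these files.

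Levels are given as CPM, the reads of a gene scaled to a common library total after trimmed-mean adjustment. Biopsies held between 12072840 and 84805845 reads on genes, with a median of 28754894. TNFSF10, XAF1 and CFLAR had median read numbers of 2557, 2592 and 3106 per biopsy, whereas FASLG had a median of 29 reads and fewer than 10 reads in 10 of 149 biopsies, so that its values are the least precise. Hepatocyte markers were abundant in 147 biopsies, with summed levels of 9 genes between 32020 and 191877 CPM. In the other two, both from week -3, the sum was 367 CPM (placebo F1016) and 200.3 CPM (wIFN-α F1018), while 12.3% and 12.4% of their reads fell on 14 skeletal muscle genes. The labels call these biopsies liver, and the markers go against that. Placebo F1021 at week 3 (10.5% muscle reads) and wIFN-α F1023 at week 0 (6.92%) were the only others above 5%. A further library went against its group: wIFN-α F1013 at week 3 had 697 CPM of MX1, an interferon-induced GTPase that marks exposure, against 4676 to 7780 CPM in the other 8 wIFN-α biopsies of that week and 177 to 775 CPM in the placebo biopsies. Whole liver was measured, so fewer cells of a type and less RNA per cell cannot be told apart.

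Per kilobase of assembled transcript, and averaged over each placebo animal's biopsies, TNFSF10 was highest with 21.6 ± 2.04 CPM per kb (SD, n = 12 animals). XAF1 followed with 18.5 ± 3.26, within the spread of TNFSF10. CFLAR stood apart at 9.23 ± 0.662 CPM per kb. FAS at 4.57 ± 0.456 and BAK1 at 3.91 ± 0.591 overlapped, as did BID at 2.20 ± 0.210 and CASP8 at 1.98 ± 0.281. FASLG was lowest, at 0.445 ± 0.131 CPM per kb. The wIFN-α animals at weeks 0 to 15 kept TNFSF10 (99.3 ± 18.96) and XAF1 (36.5 ± 4.66) at the top (SD, n = 11 animals). BAK1 stood next at 16.5 ± 3.73 CPM per kb and overlapped CFLAR at 14.1 ± 1.499 and FAS at 13.3 ± 2.03. BID (3.29 ± 0.744), CASP8 (2.13 ± 0.524) and FASLG (0.985 ± 0.293) again closed the order.

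During dosing 7 of the 8 genes rose in wIFN-α animals in at least 3 of the 5 weeks, and none fell. To be called at a week, a gene had to pass edgeR's quasi-likelihood test against the placebo animals of that week at an adjusted p below 0.05 and to differ more than 1.5-fold. Calls numbered 6 of 8 at week 0, 7 of 8 at each of weeks 3, 7 and 11, and 6 of 8 at week 15. Among all genes tested, the share called higher was 10.3% at week 0, 7.24% at week 3, 11.4% at week 7, 12.6% at week 11 and 13.4% at week 15. The median log2 fold change of the 8 genes was 1.26, 0.86, 0.95, 1.25 and 1.37 at these weeks, beside a median over all genes that stayed between -0.04 and -0.01. CASP8 was called at no week and BID at weeks 3, 7 and 11, whereas TNFSF10, FASLG, FAS, CFLAR, BAK1 and XAF1 were called at all 5 weeks of dosing.

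**Figure D1:**
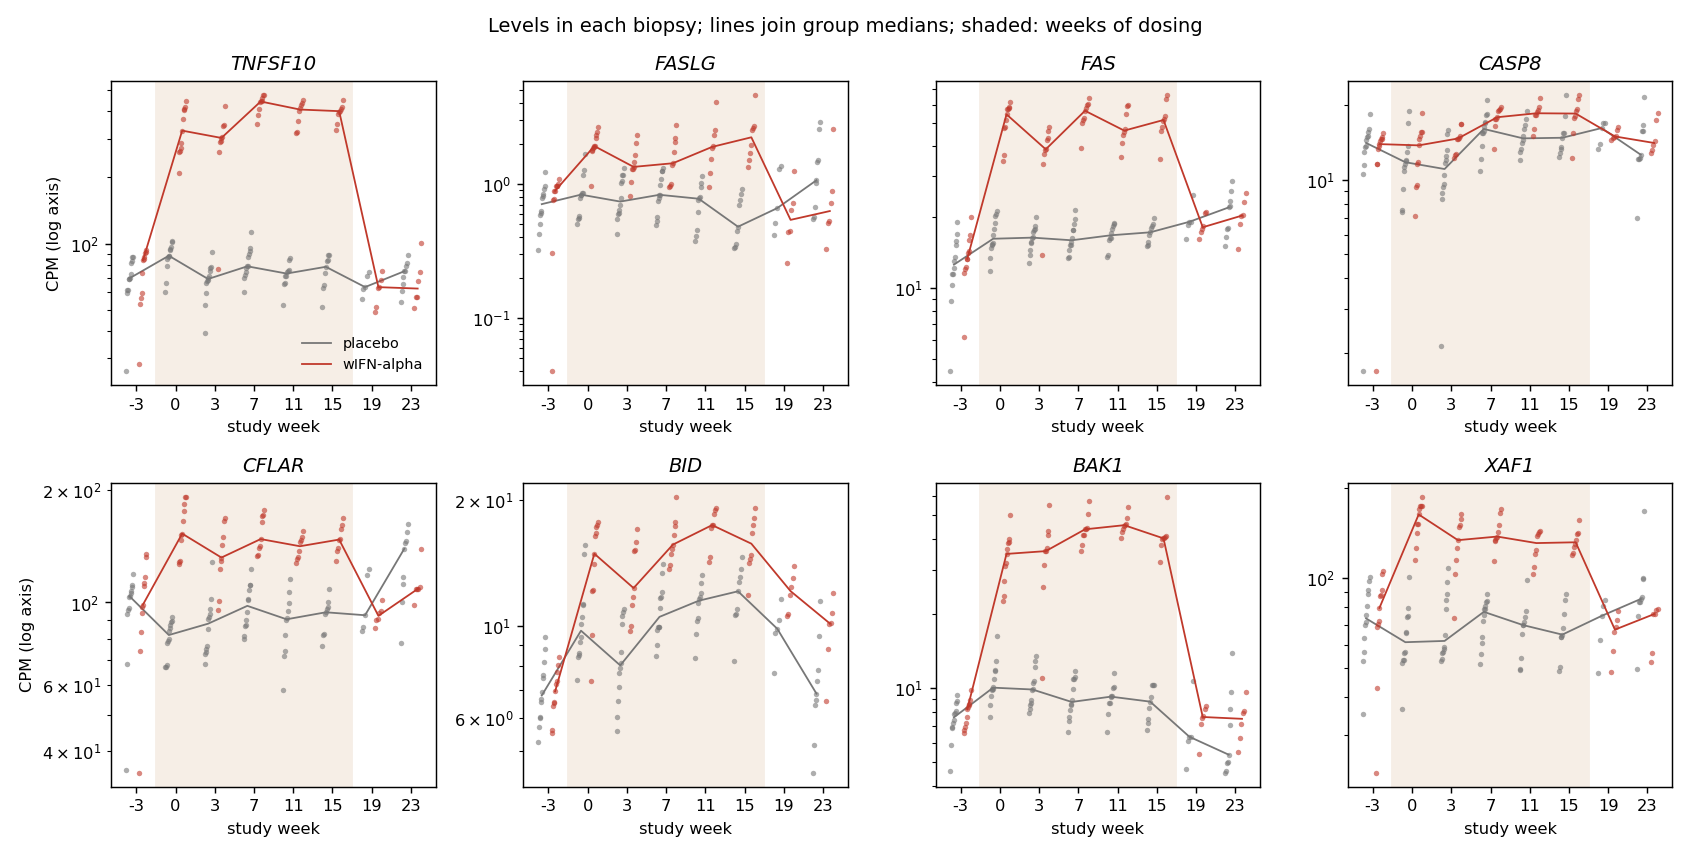
Each point is the level of a gene in a biopsy (CPM, log axis) by study week, in placebo animals (grey) and wIFN-α animals (red), with lines through the group medians and the weeks of dosing shaded. TNFSF10, FAS and BAK1 separate the groups at weeks 0, 7, 11 and 15, the CASP8 points overlap throughout, and the lone low red point of TNFSF10 at week 3 is F1013 with 76.3 CPM.

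TNFSF10 encodes the ligand TRAIL. At week 0, after the first 20 µg dose, the placebo biopsies ranged from 60.1 to 103 CPM with a median of 88.1, and the wIFN-α biopsies from 210 to 444 CPM with a median of 327. No wIFN-α biopsy lay as low as any placebo biopsy, and the fold change was 3.88 (log2 1.96 ± 0.13 SE, adjusted p = 7.04e-12). At week 3 the wIFN-α range widened to 76.3 to 424 CPM, with a median of 303, because F1013 fell inside the placebo range of 39.2 to 91.2 CPM (median 69.0). The log2 fold change of TNFSF10 at week 3 was 2.14 ± 0.20, and 2.26 without F1013. Under 100 µg the wIFN-α biopsies held 351 to 476 CPM at week 7 (median 444), 319 to 449 at week 11 (median 408) and 329 to 451 at week 15 (median 401). Placebo maxima at these weeks were 113, 86.4 and 88.5 CPM, so the groups stood apart in every animal. The fold changes were 5.39 at week 7, 5.61 at week 11 and 5.54 at week 15.

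FASLG encodes FAS ligand, which activated T and NK cells carry. The placebo biopsies of week 0 ranged from 0.499 to 1.66 CPM (median 0.831), and the wIFN-α biopsies from 0.964 to 2.64 CPM (median 1.91). Of 11 wIFN-α animals 10 exceeded the highest placebo animal, and the log2 fold change was 1.20 ± 0.19 (adjusted p = 3.17e-05). At weeks 3 and 7 the groups overlapped more, with 5 of 9 and 6 of 9 wIFN-α animals above all placebo animals and log2 fold changes of 0.82 ± 0.21 and 0.88 ± 0.22. At week 11 the wIFN-α range was 0.942 to 4.08 CPM (median 1.89) beside 0.378 to 1.14 CPM (median 0.775) in placebo. Week 15 was the only week at which the FASLG groups did not overlap. The 8 wIFN-α biopsies then held 1.34 to 4.61 CPM (median 2.23), the 9 placebo biopsies 0.330 to 0.909 CPM (median 0.479), and the fold change was 4.30 (log2 2.10 ± 0.28, adjusted p = 1.10e-05). The highest FASLG level at both week 11 and week 15 belonged to F1020, and without that animal the week 15 value was 1.89 on the log2 scale. When the week -3 biopsies were fitted together with those of the week, with the animal as a block, FASLG was not called at week 3 (log2 0.75, adjusted p = 0.212), week 7 (0.73, 0.198) or week 11 (1.43, 0.0693). Without the 4 muscle-rich biopsies the same block gave a call at week 11 (1.24, adjusted p = 0.0206) and again none at weeks 3 and 7.

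Some markers of T and NK cells were also higher in wIFN-α animals. Of 13 tested from a list of 14, 4 were called higher at week 0, 3 at week 3, 3 at week 7, 7 at week 11 and 9 at week 15. Their summed level at week 15 ran from 130 to 246 CPM in wIFN-α animals and from 57.7 to 87.9 CPM in placebo animals, and none of the 14 was at 0 in all biopsies. Across the 45 wIFN-α biopsies of weeks 0 to 15, with each week's mean removed, FASLG correlated with that sum at r = 0.75. The other 7 genes lay between -0.00 and 0.45. F1020 held the highest sums, 249 CPM at week 11 and 246 CPM at week 15, and the highest FASLG levels, 4.08 and 4.61 CPM. These correlations were not computed without F1020 or without the week 3 biopsy of F1013. Of 5 B and plasma cell markers 1 was called higher at week 11 and 3 at week 15. Of 9 myeloid markers at most 2 were called in either direction at weeks 0 to 11, with 2 higher and 1 lower at week 15. For 5 neutrophil markers 1 was higher at each week of dosing, for 9 hepatocyte markers 1 was higher at weeks 7 and 15, for 6 erythrocyte markers at most 2 were higher and 1 lower at any week, and for 14 muscle markers none was called. No list had a call at weeks -3, 19 or 23. Among all genes tested, 10.3%, 7.24%, 11.4%, 12.6% and 13.4% were called higher at weeks 0, 3, 7, 11 and 15, and 3.54% to 10.1% lower. In lists this short, 1 or 2 calls cannot be told from these shares. The biopsies behind the correlation came from 11 animals and were not independent, and the part of cell content in the FASLG values was not tested.

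**Figure D2:**
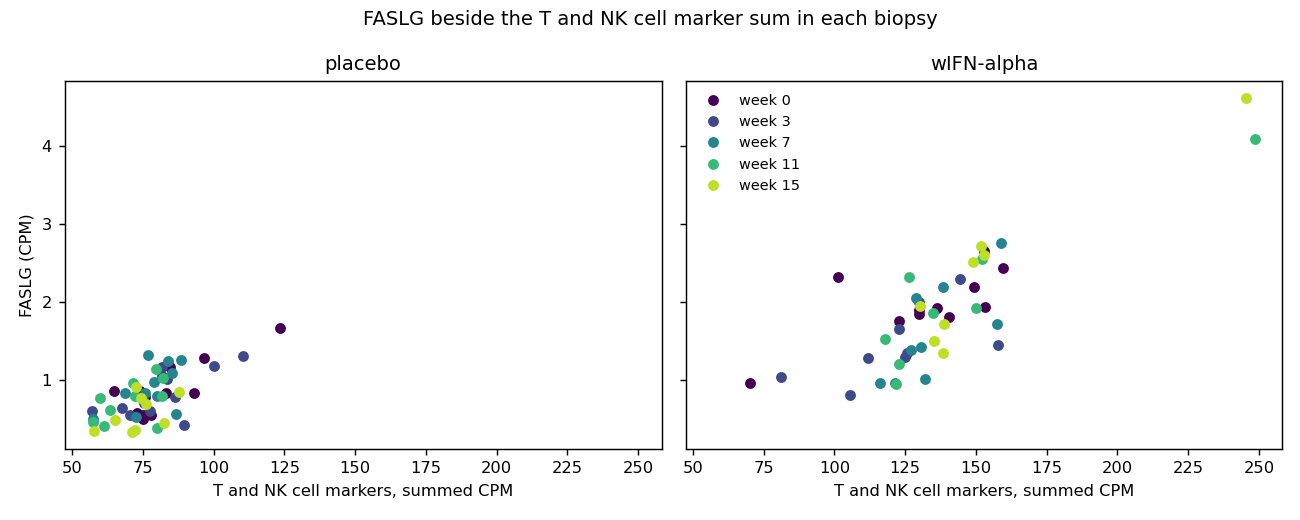
FASLG (CPM, vertical axis) is plotted against the summed level of the 14 T and NK cell markers (CPM, horizontal axis) for each biopsy of weeks 0 to 15, in placebo animals (left) and wIFN-α animals (right), coloured by week. Placebo sums stayed at or below 124 CPM, and the wIFN-α biopsies with the highest sums, 246 and 249 CPM, were both of F1020, at weeks 15 and 11.

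FAS is the receptor for FAS ligand. Placebo biopsies of week 0 ranged from 11.8 to 21.3 CPM (median 16.2), and wIFN-α biopsies from 34.6 to 61.4 CPM (median 54.7). The groups did not overlap, with a fold change of 3.10 (log2 1.63 ± 0.11, adjusted p = 2.14e-11). At week 3 the wIFN-α median was 38.8 CPM beside 16.4 CPM in placebo, and F1013, at 13.9 CPM, was again the lowest of its group. The week 3 effect of FAS was 1.25 ± 0.15 on the log2 scale, or 1.36 without F1013. At weeks 7, 11 and 15 every wIFN-α animal exceeded every placebo animal, with lowest values of 39.3, 36.2 and 35.3 CPM against placebo maxima of 21.4, 18.8 and 19.9 CPM. The log2 fold changes of FAS were 1.77 ± 0.09, 1.60 ± 0.10 and 1.68 ± 0.11. M1002 had the lowest FAS level of the wIFN-α group at week 7 (39.3 CPM), below 50.3 CPM in the next animal.

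CASP8 encodes the initiator caspase that FAS and the TRAIL receptors recruit. Its levels overlapped between the groups at every week: at week 0 they ran from 7.41 to 18.9 CPM in placebo (median 11.8) and from 7.15 to 18.6 CPM in wIFN-α animals (median 13.8). The log2 fold change was 0.13 ± 0.16 at week 0 (adjusted p = 0.583), 0.45 ± 0.21 at week 3 and 0.19 ± 0.10 at week 7. At week 11 (0.33 ± 0.09, adjusted p = 0.00815) and week 15 (0.32 ± 0.12, adjusted p = 0.0394) the p-value passed but the fold change, 1.26 and 1.25, lay under 1.5. In each of the 4 biopsies with more than 5% muscle reads CASP8 was the lowest of its group and week, and the part of the muscle reads in this was not tested. It held 1.68 CPM in both F1016 and F1018 at week -3 and 2.13 CPM in F1021 at week 3, beside group medians of 14.1, 13.9 and 11.04 CPM. Leaving out the muscle-rich biopsies turned the week 3 value into 0.36 ± 0.11 (adjusted p = 0.0259), still under 1.5-fold.

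CFLAR encodes c-FLIP, a caspase-like protein without activity that competes with caspase 8 at the receptor. The placebo biopsies of week 0 held 67.0 to 91.5 CPM (median 81.8) and the wIFN-α biopsies 127 to 192 CPM (median 153). All 11 wIFN-α animals lay above all 12 placebo animals, with a fold change of 2.003 (log2 1.00 ± 0.09, adjusted p = 1.61e-09). At week 3 the groups overlapped, with 6 of 9 wIFN-α animals above the placebo maximum of 129 CPM and a log2 fold change of 0.64 ± 0.12. They were apart again at weeks 7, 11 and 15, at 0.69 ± 0.08, 0.73 ± 0.10 and 0.77 ± 0.08 on the log2 scale. With the animal as a block, CFLAR lost its call at week 3 (adjusted p = 0.156), week 11 (0.0975) and week 15 (0.108). Without the 4 muscle-rich biopsies the block kept the calls at weeks 11 and 15 (adjusted p = 0.00327 and 0.00152), and at week 3 the fold change fell under 1.5 (log2 0.57, adjusted p = 0.0341).

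BID couples the receptor to mitochondria once caspase 8 has cut it. At week 0 placebo levels ran from 7.40 to 15.6 CPM (median 9.72) and wIFN-α levels from 7.37 to 17.7 CPM (median 14.8), with 5 of 11 wIFN-α animals above all placebo animals. The log2 fold change of 0.46 ± 0.15 (adjusted p = 0.0159) was under 1.5-fold. BID was called at week 3 (0.68 ± 0.14), week 7 (0.60 ± 0.09) and week 11 (0.68 ± 0.09), and at week 15 (0.49 ± 0.11, adjusted p = 0.00153) the fold change of 1.41 again lay under the threshold. The groups were fully apart only at week 11, when wIFN-α biopsies held 14.2 to 19.1 CPM and placebo biopsies 8.36 to 13.2 CPM. The week 7 call stood close to the threshold, at 1.52-fold, and fell under it without F1018 (log2 0.56). It was also lost with the animal as a block without the muscle-rich biopsies (0.54, adjusted p = 0.00111). BID also varied over time in placebo animals, whose medians ran from 6.81 CPM at week -3 to 12.1 CPM at week 15 and 6.87 CPM at week 23.

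BAK1 encodes BAK, which forms pores in the outer mitochondrial membrane. Placebo biopsies of week 0 held 7.62 to 16.3 CPM (median 10.02) and wIFN-α biopsies 22.5 to 50.2 CPM (median 34.9). The groups did not overlap, and the fold change was 3.21 (log2 1.68 ± 0.13, adjusted p = 3.21e-10). At week 3, F1013 with 11.01 CPM was the only wIFN-α animal within the placebo range of 7.94 to 13.5 CPM. The others held at least 25.6 CPM, and the effect was 1.81 ± 0.18, or 1.93 without F1013. At the 100 µg dose the wIFN-α medians were 43.8, 45.6 and 40.3 CPM at weeks 7, 11 and 15, and the placebo maxima 11.7, 11.5 and 10.3 CPM. The fold changes of 4.94, 5.22 and 5.01 were close to those of TNFSF10 at the same weeks.

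XAF1 encodes XIAP-associated factor 1, an interferon-induced protein known to bind and oppose the caspase inhibitor XIAP. At week 0 placebo levels ran from 36.6 to 101 CPM (median 61.2) and wIFN-α levels from 115 to 188 CPM (median 164), with no overlap and a fold change of 2.49 (log2 1.32 ± 0.13, adjusted p = 1.62e-08). At week 3 the effect was 0.89 ± 0.15 and 7 of 9 wIFN-α animals lay above the placebo maximum of 108 CPM. That maximum was F1021, the muscle-rich placebo biopsy, and F1013 was the lowest wIFN-α animal with 73.8 CPM. From week 7 on the groups were apart again, with log2 fold changes of 1.01 ± 0.09, 0.97 ± 0.12 and 1.06 ± 0.11 at weeks 7, 11 and 15.

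**Figure D3:**
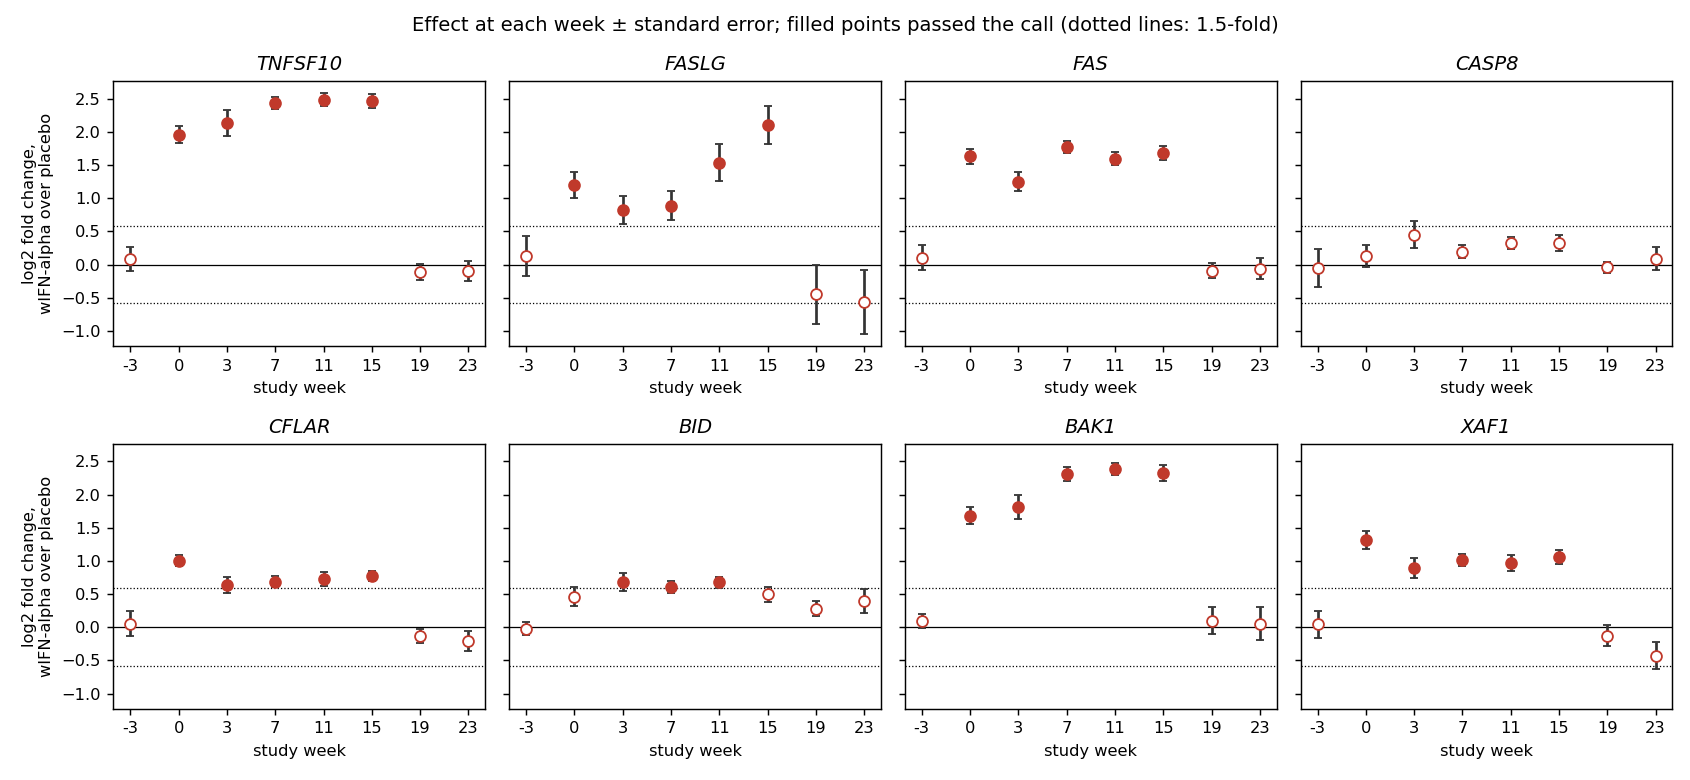
The log2 fold change of wIFN-α over placebo animals (vertical axis, ± SE) is shown by study week for each gene, with filled points for calls and dotted lines at 1.5-fold. Effects of TNFSF10 and BAK1 lie between 1.68 and 2.49 during dosing, those of CASP8 between 0.13 and 0.45, and no point is filled at weeks -3, 19 and 23.

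Before treatment none of the 8 genes was called. At week -3 their log2 fold changes lay between -0.05 and 0.13, edgeR called none of them and 0% of 14963 genes, and none had an unadjusted p under 0.05 (130 of all genes did). DESeq2 and limma-voom called none of the 8 either. Without the biopsies of F1016 and F1018, which held the lowest TNFSF10, FAS, CASP8 and CFLAR levels of the week, the same test again called none, and FASLG stood at 0.21 ± 0.21.

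After dosing ended, the levels of both groups overlapped for all 8 genes. At week 19 the 5 placebo animals had TNFSF10 levels of 56.1, 62.1, 63.4, 71.3 and 74.6 CPM and the 6 wIFN-α animals 48.7 to 74.7 CPM with a median of 63.4. FAS held 16.1 to 24.8 CPM in placebo and 16.2 to 21.0 CPM in wIFN-α animals, and BAK1 4.68 to 10.6 and 5.42 to 8.46 CPM. The log2 fold changes of the 8 genes ran from -0.45 (FASLG) to 0.28 (BID) at week 19 and from -0.56 (FASLG) to 0.40 (BID) at week 23. None was called at either week by edgeR, DESeq2 or limma-voom. Of all genes edgeR called 0% at week 19 and 0% at week 23, limma-voom called none, and DESeq2 called 87 at week 19 and 35 at week 23. BID was the only gene of the 8 with an unadjusted p under 0.05 at these weeks, with adjusted p of 0.364 and 0.300, and 1859 and 2416 of all genes had such a p. At week 19, 4 of 6 wIFN-α animals had more BID than the highest placebo animal.

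Whether an effect changed between periods was tested in a fit of all weeks, as a difference of wIFN-α against placebo effects with an adjusted p under 0.05. This fit had no term for the animal, so biopsies of the same animal at different weeks counted as separate samples. Fits with the animal as a block are given beside it where they changed a call. The return after dosing was the clearest. Taken with its sign, the mean effect of weeks 19 and 23 was lower than that of weeks 7, 11 and 15 for 6 of 8 genes. Among all genes the signed effect was lower for 19.8% and higher for 16.7%. A gene raised during dosing that returned counts as lower, and a lowered gene that returned counts as higher. The differences on the log2 scale were -2.55 ± 0.16 for TNFSF10, -2.24 ± 0.16 for BAK1, -1.996 ± 0.31 for FASLG, -1.73 ± 0.15 for FAS, -1.26 ± 0.17 for XAF1 and -0.88 ± 0.13 for CFLAR. FASLG reached -2.60 without F1013, whose level of 2.57 CPM was the highest of the wIFN-α group at week 23. Without F1020, which had no biopsy at weeks 19 and 23, the FASLG difference was -1.85. CASP8 (-0.24 ± 0.20, adjusted p = 0.371) and BID (-0.23 ± 0.13, adjusted p = 0.172) did not pass. With the animal as a block and without the muscle-rich biopsies, CASP8 did (-0.33, adjusted p = 0.00834).

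The step from 20 to 100 µg went with a larger effect for BAK1 and TNFSF10. The mean of weeks 7, 11 and 15 exceeded that of weeks 0 and 3 by 0.58 ± 0.13 for BAK1 (adjusted p = 0.00151) and by 0.40 ± 0.13 for TNFSF10 (adjusted p = 0.0469). The signed effect was higher for 3.86% of all genes. For BAK1 the difference was 0.52 without the week 3 biopsy of F1013 (adjusted p = 0.00281). For TNFSF10 it was then 0.34 and no longer passed (adjusted p = 0.0818), and it also missed the threshold in 8 of the 11 fits that left out 1 wIFN-α animal. The TNFSF10 difference passed without the muscle-rich biopsies (0.41, adjusted p = 0.0128). It also passed with the animal as a block, with these biopsies (0.40, adjusted p = 0.0325) and without them (0.41, adjusted p = 0.00464). FASLG (0.49 ± 0.26) and FAS (0.23 ± 0.12) did not pass, with adjusted p of 0.286 and 0.293, and the other 4 genes lay between -0.10 and 0.01. Dose and time on treatment cannot be told apart, since every animal received the lower dose before the higher.

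From week 0 to week 3 the effects of FAS, CFLAR and XAF1 were smaller by 0.38 ± 0.18, 0.36 ± 0.17 and 0.42 ± 0.21 in size, given here as values, since none of the 8 genes passed at an adjusted p under 0.05. These 3 had an unadjusted p under 0.05, DESeq2 and limma-voom called none of the 8, and of all genes edgeR called 389 (2.4%), DESeq2 267 and limma-voom 40. Without F1013 the differences were -0.25 for FAS, -0.28 for CFLAR and -0.33 for XAF1, with adjusted p of 0.584, 0.488 and 0.530. With the animal as a block and without the muscle-rich biopsies, CFLAR passed (-0.45 ± 0.13, adjusted p = 0.0284). From week 7 to week 15, at constant dose, FASLG differed by 1.20 ± 0.41 (adjusted p = 0.437), the only gene of the 8 with an unadjusted p under 0.05, and the others by -0.13 to 0.10. All 3 tools called none of the 8, and of all genes edgeR called 0.0246%, DESeq2 called 42 genes and limma-voom 0. With the animal as a block the FASLG difference was 1.37 ± 0.34 and passed (adjusted p = 0.0479), and without the muscle-rich biopsies it was 1.37 ± 0.31 (adjusted p = 0.0197).

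**Figure D4:**
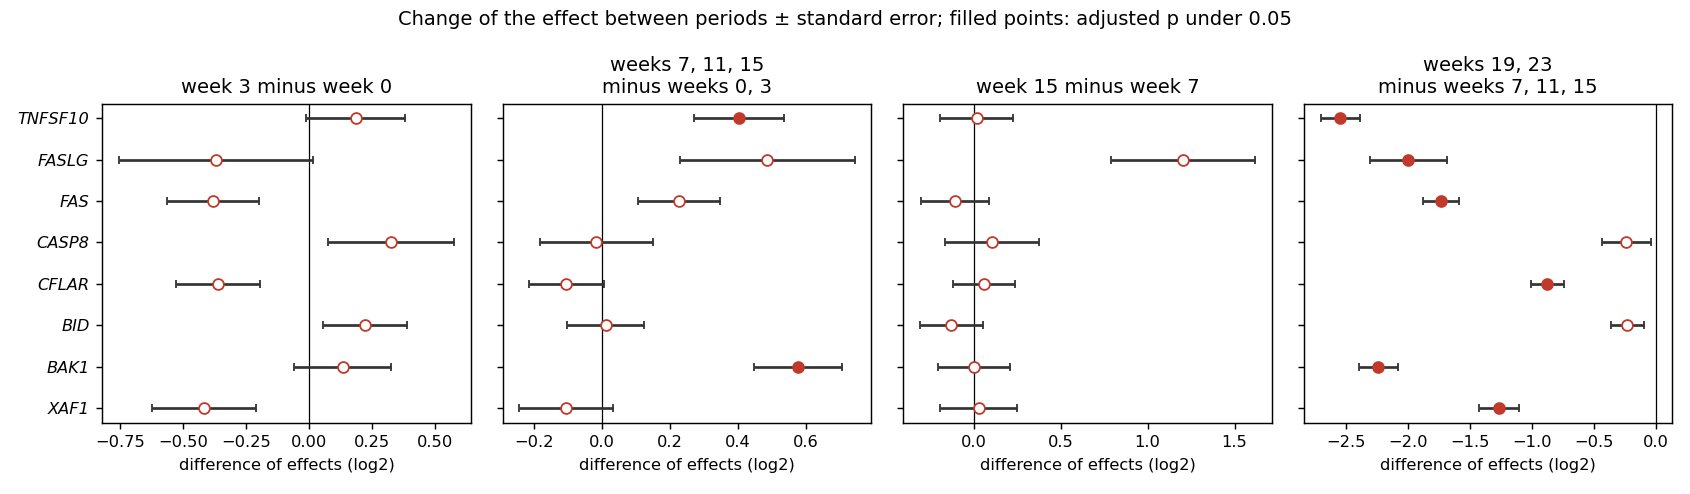
Differences between periods in the log2 effect of wIFN-α (horizontal axis, ± SE) are drawn for the 8 genes, each panel with its own scale, and filled points passed at an adjusted p under 0.05. In the panel for the end of dosing 6 points lie between -2.55 and -0.88, and in the panel for the dose step BAK1 at 0.58 and TNFSF10 at 0.40 are filled.

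The rest of the pathway was read from a list of 55 genes, of which 51 were in the files and tested at every week. At week 0, 20 were called higher and 7 lower, and at week 15, 20 higher and 5 lower. The other weeks gave 15 higher and 3 lower (week 3), 20 and 9 (week 7) and 21 and 5 (week 11). The background of genes called lower was 8.15% at week 0, 3.54% at week 3, 10.1% at week 7, 7.98% at week 11 and 8.83% at week 15, and the shares of the list called higher lay between 29.4% and 41.2%. No gene of the list was called at weeks -3, 19 or 23.

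Among the genes of the list called highest at weeks 0 and 15 were MLKL, DAXX and TNFRSF1B at both, TNFAIP3 at week 0 and TNF at week 15. MLKL, the pore-forming executor of necroptosis, went from 11.2 ± 4.41 CPM in placebo (SD, n = 12) to 132 ± 25.3 CPM in wIFN-α animals (SD, n = 11) at week 0, a log2 fold change of 3.57 ± 0.20, and stood at 3.71 ± 0.11 at week 15. DAXX, a nuclear adaptor named for its binding to FAS, rose by 2.89 ± 0.12 and 3.01 ± 0.12 at these weeks. TNFRSF1B, a receptor for TNF without a death domain, rose by 2.12 ± 0.21 and 2.75 ± 0.21, and its effect at weeks 7, 11 and 15 exceeded that at weeks 0 and 3 by 0.74. TNF itself was low, at 0.630 ± 0.457 CPM in placebo (SD, n = 9) and 5.09 ± 2.39 CPM in wIFN-α animals (SD, n = 8) at week 15, a log2 fold change of 3.07 ± 0.43. TNFAIP3, the ubiquitin-editing brake A20, rose by 2.12 ± 0.24 at week 0 and 2.18 ± 0.42 at week 15, with a smaller effect at week 3 than at week 0 (difference -1.41, adjusted p = 0.0115).

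CASP10, a relative of CASP8 that death receptors also recruit, was singled out after its values were seen. It was called higher at all 5 weeks of dosing, with 1.05 ± 0.17 at week 0 and 1.15 ± 0.24 at week 15. CYCS, which encodes the cytochrome c that BAK pores release, was called at both of these weeks too (0.77 ± 0.17 and 0.90 ± 0.15). Among 5 death receptors of the list, TNFRSF10B, a receptor for TRAIL, was the only one called higher at week 0 (0.93 ± 0.26). It was called at weeks 3, 7 and 11 as well (0.65, 0.62 and 0.59) and not at week 15 (0.23). TNFRSF10A, also a receptor for TRAIL, was called at no week and went the other way. Its values were -0.30, -0.50, -0.27, -0.53 and -0.49 at weeks 0, 3, 7, 11 and 15. TNFRSF21, another death receptor, was called lower at week 11 (-0.96 ± 0.17) and was the only one of the 5 called at week 15 (-0.65 ± 0.18). The adaptor FADD was called at no week.

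Pro-apoptotic members of the BCL2 family other than BAK1 and BID were called in the lower direction only. Of 7 tested, 4 were called lower and none higher at week 0, and 3 lower and none higher at week 15, which was not tested as a difference from BAK1. BIK fell from 4.46 ± 1.43 CPM in placebo (SD, n = 12) to 1.06 ± 0.684 CPM (SD, n = 11) at week 0, a log2 fold change of -2.05 ± 0.29. BOK, a relative of BAK, stood at -1.26 ± 0.20 at week 0 and -1.17 ± 0.18 at week 15, and BMF at -1.02 ± 0.24 and -1.20 ± 0.26. BAX, the partner of BAK in pore formation, was called lower at week 7 only (-0.70). At week 0 the ligand gene LTB was lower by 0.99 on the log2 scale (-0.99 ± 0.26), and at week 15 so was ENDOG, a mitochondrial nuclease (-0.82 ± 0.20). The anti-apoptotic genes were mixed. Of 5 anti-apoptotic BCL2 family genes tested, 1 was called higher and none lower at week 0 (MCL1, 0.65) and at week 15 (BCL2A1, 1.81). BCL2 was called lower at week 7 (-0.63), and BCL2L2, uncalled, stood at -0.50 and -0.55 at weeks 0 and 15. BIRC2, BIRC3 and XIAP, inhibitors of apoptosis, were called higher at weeks 0 and 15. They stood at 1.24, 1.44 and 0.64 at week 0 and at 1.401, 1.64 and 0.61 at week 15. BIRC5, the mitotic inhibitor survivin, was lower at week 0 (-0.88 ± 0.20) and higher at week 15 (1.39 ± 0.32), and its dose-step difference was 1.22 (adjusted p = 0.00154). At the end of dosing the effect, taken with its sign, was lower for 22 genes of the list (43.1%), beside 19.8% of all genes. It was higher for 11 (21.6%), near the 16.7% of all genes. A lowered gene that returned to the placebo level counts here as higher. No gene of the list was called at weeks 19 or 23.

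**Figure D5:**
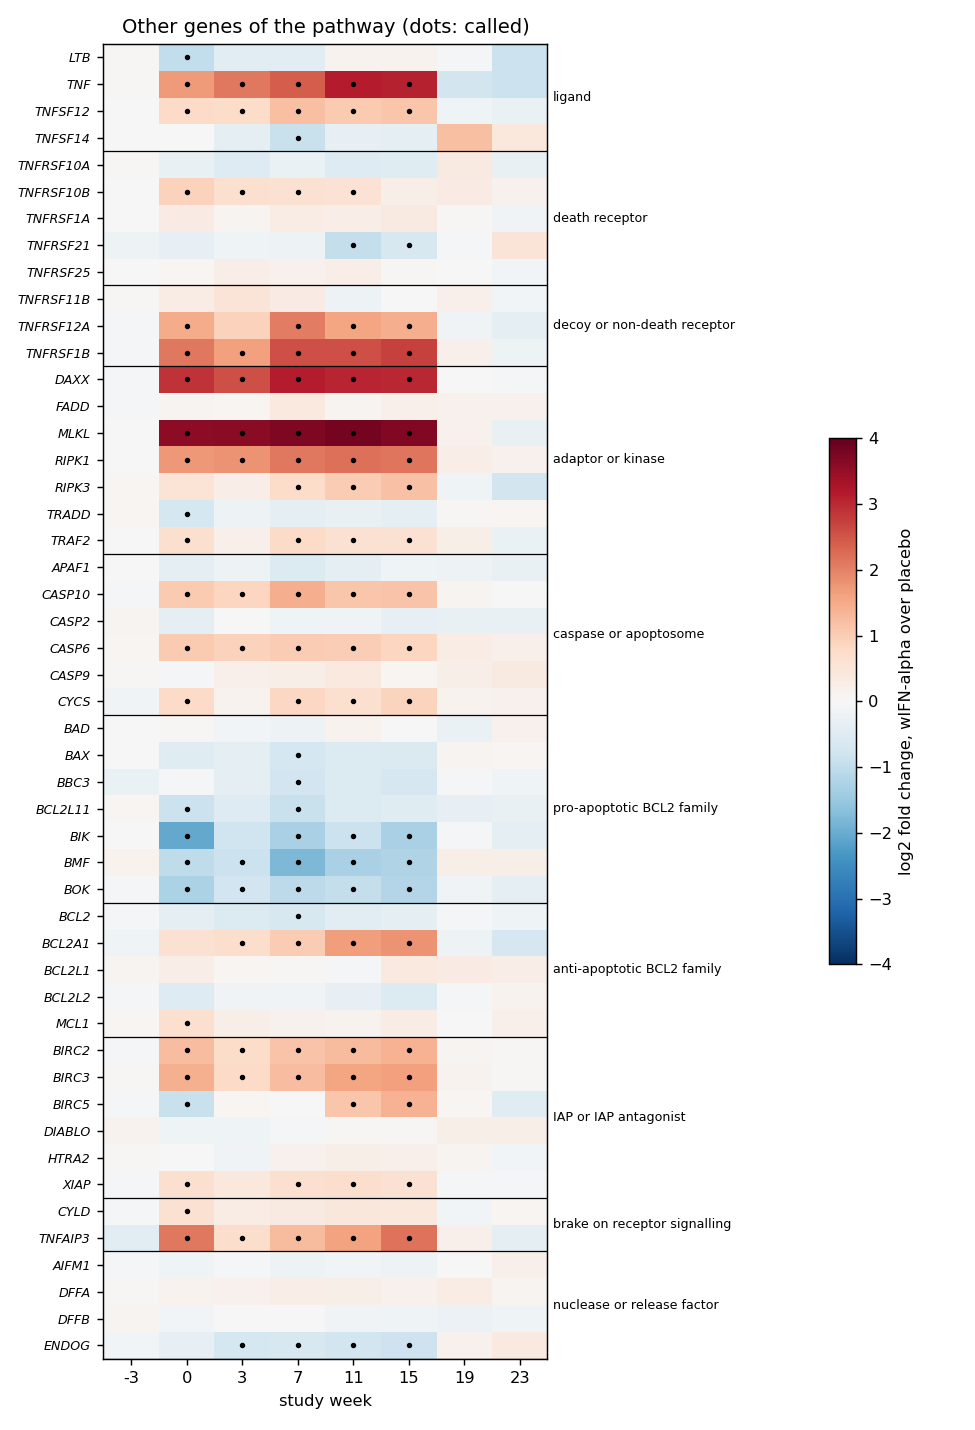
Colours give the log2 fold change of wIFN-α over placebo animals for other genes of the pathway (rows, grouped by role) at each study week (columns), and dots mark calls. MLKL shows the strongest red at each of weeks 0 to 15 (up to 3.82 at week 11). At these weeks DAXX, TNF and TNFRSF1B are also red, and BIK, BMF and BOK are blue. No dot stands at weeks -3, 19 or 23.

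The genes whose levels followed each of the 8 most closely were found among 13752 genes over the 45 wIFN-α biopsies of weeks 0 to 15, after each week's mean was removed. Among the genes most like TNFSF10 were TDRD7 (r = 0.94) and CALCOCO2 (0.93). BAK1 was most like DAXX (r = 0.90), SDC4 (0.86) and NT5C3 (0.84), and FAS most like PLEKHA4 (0.81), OSMR (0.79) and ISG20 (0.77). Without the week 3 biopsy of F1013 TNFSF10 and TDRD7 stood at 0.86, BAK1 and DAXX at 0.82 and FAS and PLEKHA4 at 0.63. FASLG was most like KLRK1 (0.92), an activating receptor of NK and T cells, TBX21 (0.91), their transcription factor T-bet, and KIAA0748 (0.88), and without F1013 the first of these was again 0.92. CASP8 followed EPB41L5 (0.83), ERLIN1 (0.77) and ABHD3 (0.77), and BID followed NDFIP2 (0.80), STX12 (0.75) and TRAM1 (0.75). XAF1 was most like SNORD12C (0.83), GRIPAP1 (0.82) and C17orf51 (0.81), and CFLAR most like SPINLW1 (0.81), ZNF433 (0.80) and ARAP2 (0.78). Among the 8 genes themselves, TNFSF10 with BAK1 went from r = 0.57 to 0.15 without that biopsy and TNFSF10 with FAS from 0.56 to 0.13, whereas TNFSF10 with CASP8 rose from 0.42 to 0.66.

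Sequencing lane was the only batch that the titles name. Within each of the 7 lanes, at weeks 0 to 15, the mean log2(CPM + 1) of wIFN-α biopsies exceeded that of placebo biopsies for all of the 8 genes but CASP8, which was higher in 6 of 7 lanes and lower by 0.12 in lane 5 (-0.12). The differences ran from 1.67 to 2.62 for TNFSF10 (2.21 over all lanes), from 1.58 to 2.32 for BAK1 (1.91), from 0.97 to 1.89 for FAS (1.47) and from 0.45 to 0.93 for FASLG (0.66). Lanes held 3 to 10 wIFN-α biopsies each.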

How the data were processed

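Poly(A) RNA of liver biopsies was sequenced in 203 runs. The authors mapped the reads with Bowtie2 to their own woodchuck transcriptome assembly and deposited for each run an estimated count of reads per gene, without normalization. They also deposited an RPKM value per gene (tool versions not given in the sources used here). Nearly all counts were whole (118 of 3368022 were not) and were rounded. RPKM served here to recover assembled gene lengths only. Runs of a biopsy were summed to 164 biopsies, of which 149 were compared. The 7 biopsies of animal M1004 and 8 from other times were left out of the tests. Study weeks were taken from the sample titles, minus 1 for weeks after the start.

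Each week was fitted in edgeR 4.0.16 (R 4.3.3) with TMM scaling, filterByExpr, a quasi-likelihood test and Benjamini-Hochberg adjustment over 14700 to 15006 genes. The SE given with an edgeR value is the size of that value divided by the square root of its F statistic. Differences between periods came from a fit of 16232 genes over all weeks, without a term for the animal. Alternatives were RLE scaling, no filter, DESeq2 1.42.0, limma-voom 3.58.1, the deepest run, M1004 included, sex, lane, all weeks in a single fit, the animal as a block, no muscle-rich biopsies, a fold of 2 and leaving out each animal. The block without muscle-rich biopsies, and the fit without the week 3 biopsy of F1013, were added after the data were seen. Same-animal biopsies of different weeks deviated together (median r = 0.31 over 450 pairs, against -0.01 between animals), and the labels name the animal. On simulated counts for week 15 (14943 genes), 14 of 50 genes changed 1.5-fold, 37 of 50 changed 2-fold and all 50 changed 4-fold were called, with 4 unchanged genes. A call needed an estimated fold above 1.5, so genes changed exactly 1.5-fold would often miss it by design. For the dose step (16232 genes), 42 of 50 changed 2-fold and 46 of 50 changed 4-fold passed, with 7 unchanged genes. Biopsies of an animal were simulated as independent.

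The 8 genes, the 55-gene list (from general knowledge) and the marker lists were chosen with earlier results of these data known. Named beyond the 8 are up to 4 genes of the list called highest and lowest at weeks 0 and 15, and the 3 genes most like each of the 8, apart from some genes that are not reported here. Other genes of the list were named after their values were seen. No sequence was printed, because none was in the files used here.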

Additional observations from a re-analysis of the deposited data

Results flagged for a closer look

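Lone biopsies stood far from the rest of their group, by Dixon's criterion on log2(CPM + 1), in 8 of 80 groups of 4 to 10 biopsies, where chance gives about 1 in 20. The week 3 biopsy of F1013 accounted for 3 of them, with 76.3 CPM of TNFSF10 (next animal 262), 13.9 CPM of FAS (next 33.7) and 11.01 CPM of BAK1 (next 25.6), beside the MX1 level of 697 CPM given above. M1002 was low in FAS at week 7 (39.3 CPM) and F1020 low in CASP8 at week 7 (13.3 CPM). F1013 was high in BAK1 at week 15 (59.5 CPM, next 41.1) and in FASLG at week 23 (2.57 CPM, next 0.889), and F1018 was high in CFLAR at week 23 (140 CPM, next 110).

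The effect of wIFN-α differed between periods, by the test of the difference itself, for TNFSF10 (0.40) and BAK1 (0.58) at the dose step and for TNFSF10 (-2.55), FAS (-1.73), FASLG (-1.996), BAK1 (-2.24), XAF1 (-1.26) and CFLAR (-0.88) at the end of dosing, all on the log2 scale.

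Biopsies outside the comparisons also held levels above every placebo biopsy of any week. In M1004, a wIFN-α animal, the lowest of 5 biopsies during dosing was 358 CPM for TNFSF10 (highest placebo biopsy 113), 38.7 for FAS (28.5), 16.3 for BID (15.6) and 29.9 for BAK1 (16.3). A biopsy of M1006 labelled week 3, kept out because its time fits no scheduled week, held 187 CPM of TNFSF10, 43.4 of FAS and 33.3 of BAK1. Liver taken at death held 331 CPM of TNFSF10, 55.4 of FAS, 56.8 of BAK1 and 178 of CFLAR in M1007, and 48.7 of FAS, 22.9 of BAK1 and 169 of CFLAR in F1023.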

How the results depend on the processing

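Of 480 values of the 8 genes at weeks 0 to 15 under alternatives other than leaving out an animal, 470 kept their direction and side of the threshold and 10 lost the call, all under the animal block. Some of the 470 could not change. No muscle-rich biopsy came from weeks 7, 11 or 15, so the weekly fit without these biopsies was there the same fit. Leaving out 1 animal left 527 of 528 such values on their side. A fold of 2 gave 3 calls at week 3, 4 at week 7 and 4 at week 11. For the dose step, 1 gene passed in place of 2 without a filter, with limma-voom, with lane as a covariate and without the week 3 biopsy of F1013, and 1 to 2 when animals were left out. With the replicate block (the animal as a block) 1 gene passed from week 7 to week 15, also without muscle-rich biopsies, where 1 passed from week 0 to week 3. The block changed no other count of calls by over 1.5 times.

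Values near 0 changed sign, all uncalled. For the dose step, BID was -0.0042 without a filter, -0.0076 with the deepest run, -0.023 with M1004, -0.0029 and -0.0045 with the block (with and without muscle-rich biopsies) and -0.0027 without F1013 at week 3, and CASP8 0.0032 without muscle-rich biopsies. Leaving out animals gave -0.041 to 0.046 for BID and -0.065 to 0.021 for CASP8. From week 7 to week 15, TNFSF10 was -0.0044 (limma-voom) and -0.0013 (M1004 included), with -0.0032 to 0.039 over animals left out, and BAK1 -0.0020 (no filter) and -0.033 (limma-voom), with -0.092 to 0.061. XAF1 ran from -0.0056 to 0.072. At week -3, limma-voom gave -0.063 for FASLG and -0.023 for XAF1, and lane gave 0.032 for BID. At week 19, CASP8 was 0.0064 (lane) and 0.026 (block without muscle-rich biopsies), BAK1 -0.14 and -0.061 (block, with and without them) and, over animals left out, -0.00034 to 0.33, and FAS -0.16 to 0.018. At week 23, BAK1 was -0.0053 (block) and FAS 0.0091 (sex). The cause was not tested.

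Depth limits FASLG most. The tests at weeks 19 and 23, in which edgeR called no gene, rest on 5 to 9 animals a group. Their p-values set the difference between the groups against the spread between animals. Those of the differences between periods count biopsies of the same animal as separate samples, except with the animal as a block.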

Other observations

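Biopsies taken outside the schedule entered no test and are given as values. Of the wIFN-α animals, F1020 at death held 25.2 CPM of TNFSF10 and 6.37 CPM of CASP8, with 244 CPM of MX1, and F1023 at death held 51.6 CPM of TNFSF10, 6.52 CPM of CASP8 and 0.20 CPM of FASLG, with 1401 CPM of MX1. M1007 at death had 331 CPM of TNFSF10 and 6772 CPM of MX1. M1002, in a late follow-up biopsy, had 73.2 CPM of TNFSF10, 17.7 CPM of FAS and 8.24 CPM of BAK1, and M1004 had 48.4 CPM of TNFSF10 at follow-up. The placebo animals F1017, M1010 and F1024 had 92.9, 83.0 and 61.3 CPM of TNFSF10 in their unscheduled biopsies.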
